A study of Mus musculus with 3 samples.

Results

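The regions described here are 283 ETO2 peaks that were called in replicate 2 alone and whose summits lay in sequence found once in the mouse genome. They were chosen by 2 criteria. A peak of the replicate 2 list had to overlap no peak of the replicate 1 list by even 1 bp, and at least 90% of the 24-mers (words of 24 bases) in the 100 bp centred on its summit had to occur once in the whole genome when both strands were counted. Of the 1873 replicate 2 peaks, 858 (45.8%) overlapped no replicate 1 peak, and 283 of these had a unique summit window. Among the 1241 replicate 2 peaks with a unique summit window, the 283 made up 22.8%. These shares were fixed by the rule and are given as a description. The replicate 1 list held 2335 peaks.

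The ChIP-seq experiment mapped ETO2 in FLK1+ mesoderm of embryoid bodies at day 4, which are aggregates of differentiating embryonic stem (ES) cells. FLK1 is a VEGF receptor that marks mesoderm able to form blood and vessels. The cells were wild type, of strain C57Bl/6 X Sv129, and the antibody was sc-9741x. The samples were 2 ETO2 ChIPs (replicate 1 and replicate 2) and 1 input. The design text describes separate ES cell differentiations, although both peak lists carry the same ChIP name. Replicate 1 was called against the input and replicate 2 without one, so the background of every peak described here came from the replicate 2 ChIP itself. A single library thus lay behind each value, with no spread between replicates, and intervals are 95% Wilson intervals that cover counting error only. Peak lists hold no expression values, so the cell type was not checked against marker genes.

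ETO2 is a co-repressor encoded by Cbfa2t3. It does not read DNA itself and reaches chromatin through complexes built around SCL (TAL1), an E protein, LMO2, LDB1 and often a GATA factor. GATA factors bind WGATAR, and SCL with its E protein binds an E-box, of which CAGCTG is a common form. In blood cells both parts of the complex often meet DNA at a composite element, in which the CTG of an E-box lies a fixed distance before GATA on the same strand. RUNX and ETS factors work beside this complex in blood and vessel development.

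Motifs were searched on both strands. The GATA motif was WGATAR, in which W is A or T and R is A or G. The E-box was CANNTG, and its form CAGCTG was also counted alone. The composite, written CTG-GATA, was CTG followed by 8 to 10 bases and then by GATA. The ETS motif was AGGAA. The RUNX motif was TGTGGT. The AP-1 motif was TGANTCA. The CTCF core was CCANNAGNNGGC. RATAGW, which is WGATAR read backwards, served as a control. Some of these overlap, since CAGCTG is itself an E-box, the GATA of the composite can be part of WGATAR, and RATAGW can share bases with WGATAR. WGATAR and RATAGW occurred together in 24 of the 283 windows.

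Summit windows of 12 of the 283 peaks are shown to make the motif content visible beside the values that follow. They are the plus strand of mm9, 5′ to 3′, and capitals mark WGATAR sites, CAGCTG sites and both parts of the composite on either strand. Sites on the minus strand therefore appear as their reverse complement. The first 5 carry the composite, the next 3 carry WGATAR without it, Cbfa2t3 and Pax3 carry CAGCTG alone, and the last 2 carry none of these.
Runx1 (chr16:92857174-92857273): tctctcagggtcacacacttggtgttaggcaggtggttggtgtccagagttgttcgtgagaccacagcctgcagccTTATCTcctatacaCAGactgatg
Nos3 (chr5:23871519-23871618): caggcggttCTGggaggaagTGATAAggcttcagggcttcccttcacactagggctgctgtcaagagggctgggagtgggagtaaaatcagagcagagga
Gse1 (chr8:123003752-123003851): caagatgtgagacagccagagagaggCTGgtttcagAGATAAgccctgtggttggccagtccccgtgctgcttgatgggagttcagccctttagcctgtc
Igf1r (chr7:75309082-75309181): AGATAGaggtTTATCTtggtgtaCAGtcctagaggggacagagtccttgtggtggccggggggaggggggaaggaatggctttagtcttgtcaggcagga
Slco3a1 (chr7:82073566-82073665): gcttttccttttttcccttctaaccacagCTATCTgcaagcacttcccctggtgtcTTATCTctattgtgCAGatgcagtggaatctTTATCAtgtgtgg
Erg (chr16:95568908-95569007): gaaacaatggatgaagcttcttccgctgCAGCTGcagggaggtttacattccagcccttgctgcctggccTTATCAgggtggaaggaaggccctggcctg
Cd34 (chr1:196754150-196754249): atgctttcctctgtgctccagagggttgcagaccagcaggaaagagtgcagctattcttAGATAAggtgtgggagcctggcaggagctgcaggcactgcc
Irx3 (chr8:94289469-94289568): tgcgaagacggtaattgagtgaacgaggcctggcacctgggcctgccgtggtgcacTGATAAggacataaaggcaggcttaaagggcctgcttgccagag
Cbfa2t3 (chr8:125189215-125189314): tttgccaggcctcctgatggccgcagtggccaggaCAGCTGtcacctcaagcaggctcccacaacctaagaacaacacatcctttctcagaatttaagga
Pax3 (chr1:78178590-78178689): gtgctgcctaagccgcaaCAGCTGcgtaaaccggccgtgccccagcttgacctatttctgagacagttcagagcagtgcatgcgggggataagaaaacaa
Fli1 (chr9:32389713-32389812): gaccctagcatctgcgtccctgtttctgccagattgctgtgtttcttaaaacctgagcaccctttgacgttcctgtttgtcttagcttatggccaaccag
Cntnap5b (chr1:102076758-102076857): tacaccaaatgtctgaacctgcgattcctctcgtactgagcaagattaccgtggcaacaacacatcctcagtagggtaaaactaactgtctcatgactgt

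Each peak is named by the protein-coding gene with the nearest start site. Runx1, Erg, Irx3, Cbfa2t3, Pax3 and Fli1 are transcription regulator genes, Cd34 and Nos3 are expressed in endothelium, and Igf1r encodes a growth factor receptor. Slco3a1 (a transporter gene) and Igf1r are shown because they were among the composite-bearing peaks of highest fold enrichment, and Cntnap5b because it had the highest fold enrichment of the windows shown.

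The 283 peaks were mostly weak. Fold enrichment at the summit, the authors' ratio of fragments to local background, ran from 2.26 to 18.7 with a median of 4.22, and the middle of the list, between the quartiles, spanned 3.83 to 4.87. The number of fragments at the summit, recovered from the fold enrichment and the p-value, ran from 18 to 171 with a median of 29. Median −log10 q was 7.50 and median width was 193 bp. The 958 replicate 2 peaks that overlapped a replicate 1 peak in unique windows, called shared peaks from here on, had a median fold enrichment of 5.38, a median of 36 fragments and a median width of 241 bp. The 575 replicate 2-only peaks in repeated windows had medians of 4.52, 35 fragments and 224 bp. All these values come from the call that chose the peaks, and they were not tested.

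**Figure D1:**
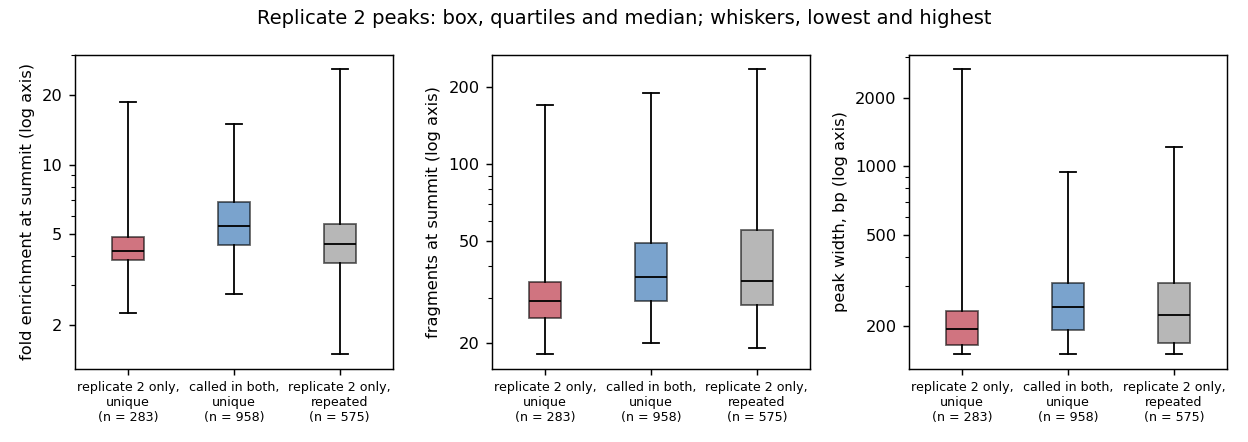
Fold enrichment at the summit, fragments at the summit and peak width (bp), each on a log axis, for the 283 replicate 2-only peaks in unique windows, the 958 shared peaks in unique windows and the 575 replicate 2-only peaks in repeated windows. Boxes give quartiles and median and whiskers the lowest and highest peak; the 283 peaks have the lowest median in each panel (4.22, 29 fragments and 193 bp).

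The 1241 unique replicate 2 peaks were divided into 4 groups by fragments, and the share with no replicate 1 partner fell from the weakest group to the strongest. Of the 311 peaks with the fewest fragments (18 to 28), 123 (39.6%, 34.3 to 45.1) were replicate 2-only. The share was 27.7% of the next 310 (28 to 34 fragments), 16.5% of the third 310 (34 to 45) and 7.42% (4.99 to 10.9) of the 310 with the most (45 to 190). The strongest group still held 23 replicate 2-only peaks. These shares rest on the same call as the rule and are a description.

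GATA motifs were concentrated at the summits. WGATAR occurred in 121 of 283 summit windows (42.8%, 37.1 to 48.6) and in 17.0% of its flanks, which were 100 bp windows centred 500 bp away on either side, a difference of 25.8 percentage points (2-sided exact McNemar test, larger p of both flanks, adjusted over 9 motifs, p = 2.10e-08). The composite CTG-GATA occurred in 55 windows (19.4%, 15.2 to 24.4) and in 1.41% of flanks (adjusted exact McNemar p = 1.72e-10). Windows of 100 bp placed every 100 kb along the genome and unique by the same measure held WGATAR in 20.8% of 17204 cases and CTG-GATA in 3.01%.

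CAGCTG, the E-box form, and the RUNX motif were also more frequent at the summit. CAGCTG was found in 46 windows (16.3%, 12.4 to 21.0) and in 5.30% of flanks (adjusted exact McNemar p = 0.000525), against 3.99% of unique genome windows. RUNX was found in 39 windows (13.8%, 10.2 to 18.3) and in 5.30% of flanks (adjusted exact McNemar p = 0.00717), against 6.89% of unique genome windows. With flanks 1 kb away in place of 500 bp, the RUNX difference was 6.36 points and no longer passed the threshold of 0.05 (adjusted exact p = 0.0608). Among the 66 peaks with a fold enrichment of at least 5, neither difference passed, with CAGCTG higher by 12.1 points (adjusted exact p = 0.498) and RUNX by 12.9 points (adjusted exact p = 0.428).

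The remaining motifs did not pass this test. The general E-box was in 50.5% of summit windows and 39.9% of flanks (adjusted exact p = 0.221), and ETS was in 42.8% and 33.7% (adjusted exact p = 0.113). The ETS difference passed with 200 bp windows (11.5 points, adjusted exact p = 0.0193) and at a q-value of at most 1e-05 (11.1 points, adjusted exact p = 0.0469). AP-1 (3.18% and 2.12%) and the CTCF core (1.06% and 0.530%) had adjusted exact p-values of 1. The control RATAGW was in 13.1% of summit windows and 15.2% of flanks (adjusted exact p = 0.910). In unique genome windows these motifs were found in 40.7%, 33.4%, 3.47%, 0.401% and 18.7%. Median GC content was 52% in the summit windows and 44.5% in the flanks, compared with 42% in unique genome windows, and the part of base composition in the motif shares was not tested beyond the control. Peaks of a list are not independent replicates, so these tests compare positions within this list only.

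**Figure D2:**
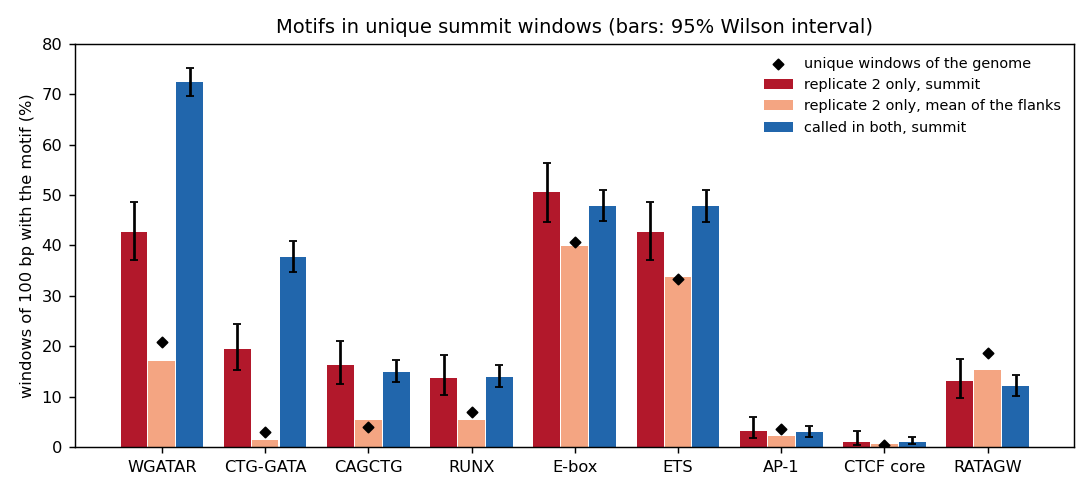
Percent of 100 bp windows holding each motif at the summits of the 283 replicate 2-only peaks, in their flanks (mean of both sides, no interval drawn), at the summits of the 958 shared peaks, and in unique windows of the genome (diamonds). Error bars are 95% Wilson intervals; WGATAR and CTG-GATA are lower in the replicate 2-only peaks (42.8% and 19.4%) than in shared peaks (72.5% and 37.8%), while CAGCTG and RUNX are close.

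Against the shared peaks, the 283 peaks had fewer GATA motifs. WGATAR was in 695 of 958 shared windows (72.5%, 69.6 to 75.3), so the share in the 283 minus that in shared peaks was -29.8 percentage points (2-sided Fisher's exact test, adjusted over 9 motifs, p = 1.07e-18). CTG-GATA was in 362 shared windows (37.8%, 34.8 to 40.9), a difference of -18.4 points (adjusted Fisher's exact p = 1.57e-08). For the other motifs no difference passed the test. CAGCTG was in 14.9% of shared windows (12.8 to 17.3), RUNX in 13.9% (11.8 to 16.2), ETS in 47.8% (44.7 to 51.0) and the E-box in 47.9% (44.8 to 51.1), and the lowest adjusted exact p of these was 0.409. The ETS difference passed under looser uniqueness, at -10.3 points with at least 50% of 24-mers unique (adjusted exact p = 0.00130) and -7.98 points with 36-mers (adjusted exact p = 0.0300). Intervals for the 283 peaks were 12.4 to 21.0 for CAGCTG and 10.2 to 18.3 for RUNX, so a difference of several points in either direction was not detectable at this number of peaks.

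Replicate 1-only peaks in unique windows lay between these sets for WGATAR. Of 1242 such peaks, 720 (58.0%, 55.2 to 60.7) held it, a difference of -15.2 points for the 283 (adjusted Fisher's exact p = 4.04e-05). The lists were called with and without an input, so calling and library cannot be told apart in comparisons with replicate 1-only peaks. With a minimum fold enrichment of 5 set on replicate 2 alone, 33 of 66 replicate 2-only peaks held WGATAR. Their difference from all 1242 replicate 1-only peaks, of any fold enrichment, was -7.97 points (adjusted Fisher's exact p = 0.531). CTG-GATA was in 24.7% of replicate 1-only peaks (adjusted exact p = 0.114), a difference that passed with at least 50% of 24-mers unique (-11.0 points, adjusted exact p = 6.29e-06) and with 36-mers (-9.43 points, adjusted exact p = 0.000469). CAGCTG (11.5%) and RUNX (9.58%) were less frequent there than in the 283 peaks, at adjusted exact p-values of 0.0904 for both, which missed the threshold. With replicate 2-only peaks limited to those with at least 90% of the 1 kb unique, both passed (adjusted exact p = 0.0217 and 0.0453). With replicate 2 limited to a q-value of at most 1e-05, CAGCTG passed (adjusted exact p = 0.0373). Neither limit was set on the 1242 replicate 1-only peaks. In the 575 replicate 2-only peaks in repeated windows WGATAR was in 20.5% and CTG-GATA in 2.43%, below the 283 peaks at adjusted Fisher's exact p-values of 9.30e-11 and 9.38e-16.

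The overlap of WGATAR and CAGCTG in the 283 windows was counted and was not tested. Both were present in 16 windows (5.65%), CAGCTG without WGATAR in 30 (10.6%, 7.53 to 14.7), and at least 1 of them in 151 (53.4%, 47.5 to 59.1). Counting RUNX as well, 165 windows (58.3%, 52.5 to 63.9) held at least 1 of the 3 motifs, compared with 80.5% (77.9 to 82.9) of shared peaks. CAGCTG without WGATAR was found in 41 shared windows (4.28%, 3.17 to 5.75), and both motifs in 102 (10.6%). Fewer shared windows lacked WGATAR, and CAGCTG was in 15.6% of the 263 that lacked it and 14.7% of the 695 that held it. Within the 283, CAGCTG was in 13.2% of the 121 windows with WGATAR and in 18.5% of the 162 without it, and RUNX in 16.5% and 11.7%, with overlapping intervals. Median fold enrichment was 4.40 with WGATAR and 4.19 without.

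WGATAR rose towards the summit over about 100 bp on each side. In the bin of 30 bp just right of the summit, 54 of 283 peaks (19.1%) had the motif, and in the bin just left of it 36 (12.7%), whereas the outermost bins held 6.71% and 5.30%. Shared peaks reached 31.6% in the bin just left of the summit. Of the 283 peaks, 67 (23.7%) had WGATAR within 25 bp of the summit, compared with 49.8% of shared peaks and 12.2% of replicate 2-only peaks in repeated windows. Among the 236 of the 283 peaks with WGATAR within 300 bp, the nearest lay a median of 45.5 bp from the summit, and the median was 24 bp in shared peaks. In repeated windows the profile was flat.

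**Figure D3:**
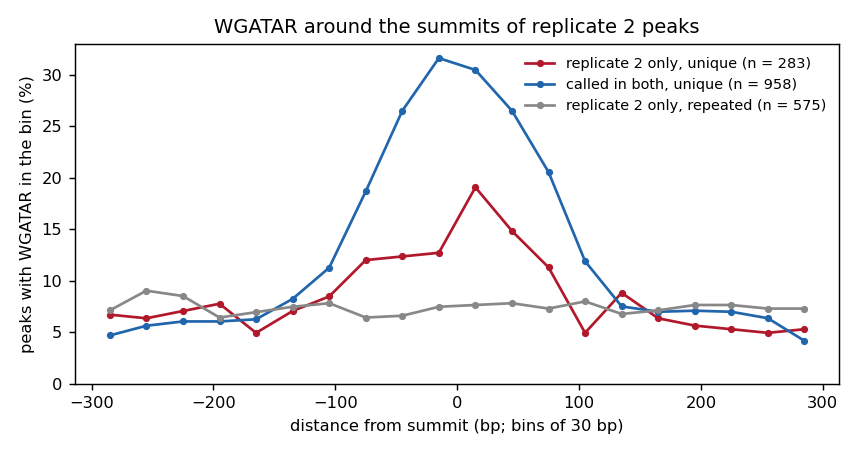
Percent of peaks with WGATAR in bins of 30 bp, by distance from the summit (bp), for 283 replicate 2-only peaks in unique windows, 958 shared peaks and 575 replicate 2-only peaks in repeated windows. The 283 peaks rise to 19.1% beside the summit and shared peaks to 31.6%, while repeated windows show no rise.

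The distance between CTG and GATA showed the spacing of the composite. With 9 bases between them the pair was found in 31 of 283 windows (10.9%, 7.83 to 15.1) and with 8 bases in 19 (6.71%, 4.34 to 10.2), whereas each other spacing from 1 to 16 bases was found in 4 to 11 windows. In shared peaks 9 bases were found in 21.2% and 8 bases in 12.2%. The order of these most frequent spacings was thus the same in both sets, at a lower level in the 283. A spacing of 10 bases, included in the composite, was found in 6 of the 283 windows, within the range of the other spacings.

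The share with WGATAR was set beside strength within each set. Divided into 4 groups by fold enrichment, the 283 peaks held it in 32.4% (22.7 to 43.9) of the lowest group, 45.1% and 42.9% of the middle groups and 50.7% (39.3 to 62.0) of the highest, which began at a fold enrichment of 4.87. Shared peaks held it in 65.0% (58.8 to 70.8) of their lowest group, which ended at 4.47, and in 77.9% (72.3 to 82.7) of their highest. The highest group of the 283 thus had a lower share than the lowest group of shared peaks, with intervals that overlap. From the lowest group of the 283 to the highest, CAGCTG was in 8.45% (3.93 to 17.2), 12.7% (6.81 to 22.4), 27.1% (18.1 to 38.5) and 16.9% (9.94 to 27.3).

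**Figure D4:**
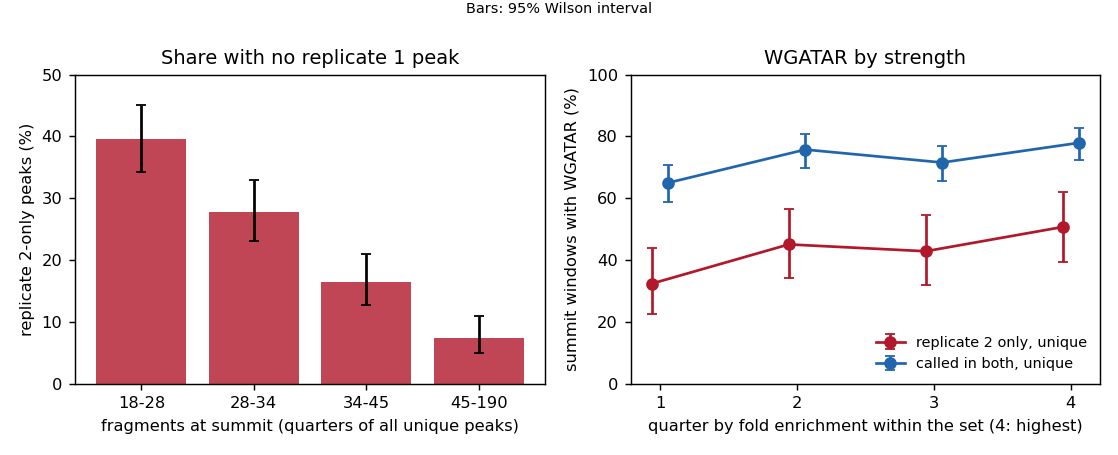
Left, percent of the 1241 replicate 2 peaks in unique windows that overlap no replicate 1 peak, in 4 groups by fragments at the summit, from 39.6% to 7.42%. Right, percent of summit windows with WGATAR in 4 groups by fold enrichment within each set, where the 283 replicate 2-only peaks run from 32.4% to 50.7% and shared peaks from 65.0% to 77.9%. Bars are 95% Wilson intervals.

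Some of the strongest of the 283 peaks lay beside repeated sequence. Of the 10 with the highest fold enrichment, 6 had under 90% of the 24-mers in the 1 kb around the summit unique, whereas over all 283, 71 had under 90% and the median was 97.6%. WGATAR was absent from 7 of the 10 windows and from 162 of all 283. The highest fold enrichment, 18.7 with 131 fragments, lay in an intron of Kctd16 on chromosome 18, where 60.9% of the 1 kb was unique. A peak in an intron of Cntnap5b (chr1:102076709-102076934), a gene of a neuronal adhesion protein family, had 11.5 with 70 fragments and 43.9% unique. The Galr1 peak, 185 kb from the start of this galanin receptor gene, had 9.53, and the Gm4694 peak (chr9:123832738-123834413) had 8.07 over 1676 bp, and both held WGATAR.

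The other members of these 10 ran from 7.09 to 7.75. The Clcn4-2 peak (7.75, chloride channel gene) lay 0.19 kb before the start site with 70.5% of the 1 kb unique, and the Atg5 peak (7.11, autophagy gene) had 73.4%. The peaks of 4933412E24Rik (7.43), Clnk (7.16, an adaptor of immune cells) and Iyd (7.09, an enzyme of iodide recovery) had 92.0%, 95.2% and 96.1%, with no WGATAR. The Rp1l1 peak (7.30, 49 fragments) was the only one of the 10 with WGATAR, a fully unique 1 kb and a replicate 1 peak within 10 kb, which lay 8.69 kb away and had a fold enrichment of 6.50. None of the 10 genes was also nearest to a region called in both replicates.

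Over the whole list the share with WGATAR was similar whether or not the wider sequence was unique. It was in 89 of the 212 peaks with at least 90% of the 1 kb unique (42.0%, 35.5 to 48.7) and in 32 of the 71 others (45.1%, 34.0 to 56.6). CAGCTG was in 18.9% and 8.45% of these. With the 212 peaks alone, the WGATAR share kept its direction and passed the threshold both against flanks and against shared peaks.

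**Figure D5:**
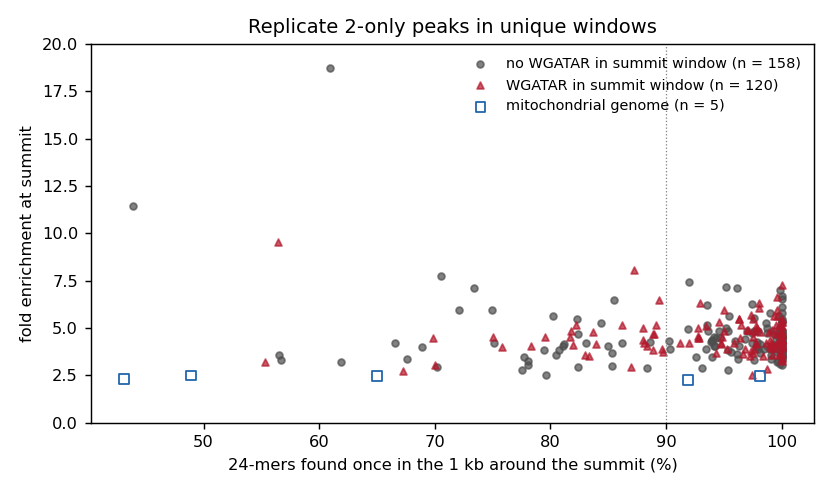
Fold enrichment at the summit against the percent of 24-mers found once in the 1 kb around it, for the 283 replicate 2-only peaks in unique windows; triangles have WGATAR in the summit window, circles do not, and squares are the 5 mitochondrial peaks. The dotted line marks 90%, and the highest values (18.7 and 11.5) lie at 60.9% and 43.9%.

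The 283 peaks lay mainly away from promoters. By summit, 147 (51.9%, 46.1 to 57.7) were intergenic, 117 (41.3%) intronic, 7 (2.47%) in untranslated regions, 5 (1.77%) in coding exons, 2 in non-coding exons and 5 on the mitochondrial genome. The intergenic share differed from the 50.6% of shared peaks by 1.32 points (2-sided Fisher's exact p = 0.735). Within 1 kb of a protein-coding start site lay 19 peaks (6.71%, 4.34 to 10.2), compared with 5.74% of shared peaks (2-sided Fisher's exact p = 0.568) and 19.1% of replicate 1-only peaks (2-sided Fisher's exact p = 8.46e-08). Replicate 1 had an input in calling and replicate 2 had none, which cannot be told apart from the library in the replicate 1-only comparison. The median distance of the 283 peaks to the nearest start site was 35.5 kb, and 25.3 kb for shared peaks.

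Among the 19 peaks near start sites, 6 had WGATAR (31.6%), 7 had CTG-GATA (36.8%) and none had CAGCTG. Over all 283 peaks the shares were 42.8%, 19.4% and 16.3%, and the differences were not tested. After Clcn4-2 the highest fold enrichments were at Rbms2 (6.46, RNA-binding protein, WGATAR), St6galnac1 (5.98, sialyltransferase) and Igf1, which codes for a growth factor and had peaks of 5.63 and 4.53 within 0.564 kb. Mtus1 (5.50) carried the composite, and 4931408C20Rik (5.12), Nos3 (4.88, the endothelial nitric oxide synthase), March2 (4.86, a ubiquitin ligase) and Spnb1 (4.40, a spectrin of the red cell membrane) carried WGATAR. Clpb (4.87), Gpr137 (4.62), Hist4h4 (4.04), F2r (4.04, a thrombin receptor) and Gm9765 (2.88) carried neither. Ccdc102a (3.94) and Rnf166 (3.05) carried CTG-GATA without WGATAR, and Fbxl20 (3.71) carried WGATAR. A motif match alone does not place a factor at a window.

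The composite-bearing peaks had fold enrichments from 3.05 to 9.53 with a median of 4.46. The highest were at Galr1 (9.53), Rbms2 (6.46), Igf1r (6.08, 40 fragments, intronic), Slco3a1 (5.98, 36 fragments) and Zfp608 (5.70, intronic, on chromosome 18). Of the 55, 47 also had WGATAR, and 16 were nearest to a gene that also had a region called in both replicates.

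Some of the 283 peaks stood beside genes with other ETO2 regions. For 68 of 283 peaks (interval 19.4% to 29.3%) the nearest gene was also the nearest gene of a region called in both replicates. For replicate 2-only peaks in repeated windows the share was 9.04% (6.96 to 11.7), which left the 283 higher by 15.0 points (2-sided Fisher's exact p = 8.76e-09). For replicate 1-only peaks in unique windows it was 21.7% (270 of 1242, interval 19.5 to 24.1), and no difference from the 283 was detected (2-sided Fisher's exact p = 0.428). For 174 peaks (61.5%) the gene had neither a region called in both nor a replicate 1-only region. The 68 peaks had a median fold enrichment of 4.39 and WGATAR in 28 (41.2%), and the 215 others had 4.20 and 93 (43.3%). A replicate 1 peak lay within 10 kb of 28 peaks (9.89%) and within 1 kb of 7.

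The highest fold enrichments among these 68 were at Opa1 (6.23, a mitochondrial fusion gene, 4.68 kb from a replicate 1 peak), Tbx3 (6.14, a T-box factor gene, 421 kb from its start), Igf1r (6.08), St6galnac1 (5.98) and Zfp608 (5.70). In all, 246 genes had at least 1 of the 283 peaks, which is 1.11% of the 22219 protein-coding genes. Of the 246, 59 also had a region called in both, 32 had a replicate 1-only region without one, and 155 had neither. The shares of all protein-coding genes with such regions are not given here, so these counts are a description only. At 26 genes there were 2 or more of the 283 peaks, with 4 at most.

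Lists of 173 annotated genes of blood, endothelium and other mesoderm, with neural genes for comparison, were examined, and 18 of these genes (10.4%, 6.68 to 15.8) were nearest to at least 1 of the 283 peaks, beside 1.11% of all protein-coding genes. They had 22 of the peaks, with fold enrichments from 2.98 to 5.49 and fragments from 23 to 50. WGATAR was in 10 of the 22 windows (45.5%) and CTG-GATA in 5, close to the shares of all 283. Some lists follow the study's own calls of ETO2 binding in these cells and are not independent of it. Those calls may rest in part on these same peaks. The pooled share of 10.4% includes these lists, so it and their counts are a description only. In the lists that follow the study, 6 of 15 bound and SCL-activated genes and 2 of 7 bound and SCL-repressed genes had a peak. So did none of 2 bound without RYBP, none of 8 unbound genes and 1 of 6 further SCL targets. Among the other lists, peaks were nearest to 3 of 21 endothelial, 2 of 22 blood surface and red cell, 2 of 16 paraxial and skeletal, and 2 of 23 signalling genes, and to none of 23 blood regulator, 17 cardiac or 13 neural genes.

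Runx1, which drives the formation of blood stem cells, had the strongest of these peaks. It lay 30.9 kb before the start site (chr16:92857124-92857350) with a fold enrichment of 5.49 and 33 fragments over a background of 5.19, and its window, printed above, held WGATAR, the composite and RUNX. The nearest replicate 1 peak was 26.7 kb away with a fold enrichment of 9.55. Erg, an ETS factor gene of endothelium and blood stem cells, had 2 peaks, 4.85 in an intron (chr16:95612502-95612793) and 4.68 in intergenic sequence (chr16:95568892-95569078). Only the second carried motifs marked in the printed windows, WGATAR and CAGCTG.

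Fli1, another ETS factor gene, had a peak of 4.04 with 24 fragments (chr9:32389703-32389868), 40.8 kb before the start. It lay 2 bp from a replicate 1 peak of fold enrichment 2.77, the smallest gap in the list, and is replicate 2-only by that margin.

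Cbfa2t3, the gene of ETO2, had an intronic peak of 4.71 with 50 fragments (chr8:125189174-125189403), 0.84 kb from a replicate 1 peak of fold enrichment 16.7. Its local background was 9.82 fragments, above the median of the 283. The gene also had 5 regions called in both. Peaks on chromosome 8 had a median background of 6.85 fragments in the 283 and 8.34 in shared peaks, compared with 5.38 in all 283. With chromosome 8, the highest nuclear medians of the 283 were on chromosomes 1 (6.85, and 7.34 in shared peaks) and 4 (7.20 and 5.50). Other nuclear chromosomes ran from 5.19 to 5.67 in the 283. The Gse1 peak (3.58, 34 fragments, background 8.79) is also on chromosome 8, 3.89 kb from a replicate 1 peak, and carried the composite. Gse1 encodes a subunit of co-repressor complexes.

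Irx3, a patterning factor gene, and Ctgf, a matrix-linked growth factor gene, were the SCL-repressed genes with a peak. These had fold enrichments of 4.04 and 3.88, lay 36.03 kb and 137 kb from the start sites and both held WGATAR. Among surface protein genes, Cd44 had an intronic peak of 5.04 without WGATAR and Cd34 a peak of 4.09 with it, 10.8 kb before the start. The Cd34 peak was 173 kb from any replicate 1 peak.

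Endothelial genes with a peak were Nos3, Eng and Nrp2. Nos3 had 4.88 with 30 fragments 0.94 kb after its start, with the composite. Eng, a co-receptor of TGF-beta signals, had an intronic peak of 4.20 without WGATAR. Nrp2, a semaphorin and VEGF co-receptor gene, had peaks of 4.17 and 3.57 at 157 kb and 205 kb from its start, and the second held the composite. No replicate 1 peak lay within 1 Mb of either.

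Paraxial and signalling genes with a peak were Foxc2, Pax3, Smad7 and Fgfr1. Foxc2, a forkhead factor gene of paraxial mesoderm and vessels, had peaks of 3.77 and 2.98, both in introns of the overlapping gene model Gm20388 and without WGATAR. Pax3, a muscle progenitor factor gene, had an intronic peak of 3.50 with CAGCTG. Smad7, an inhibitor of TGF-beta and BMP signalling, had peaks of 4.60, in an intron of Ctif, and 3.66, with the composite, and replicate 1 peaks lay 4.68 kb and 2.56 kb away. The Fgfr1 peak (3.47, background 8.80) was 1.62 kb after its start and had no WGATAR.

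Most of the 283 peaks stood alone. Chained at 10 kb or less, 247 had no other of the 283 nearby and 36 formed 15 chains. Any region of the series list lay within 10 kb of 71 (25.1%, 20.4 to 30.5), compared with 25.5% of shared peaks (2-sided Fisher's exact p = 0.938, neighbouring peaks not independent). Within 1 kb the shares were 12.0% and 7.41%, a difference of 4.60 points in the other direction (2-sided Fisher's exact p = 0.0203).

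The largest chain was the mitochondrial genome, with 5 peaks of fold enrichment 2.26 to 2.50. They held 148 to 171 fragments, the most of all 283, over a local background of 63.5 to 72.0 fragments, and 4 of the 5 had no WGATAR. Replicate 1 had no mitochondrial peak and replicate 2 had 6. Because replicate 2 was called without an input, mitochondrial DNA content and ETO2 signal cannot be told apart there.

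The next chains were at predicted gene models. Gm13251 on chromosome 4 had 4 intronic peaks within 3.69 kb (fold enrichment 2.95 to 3.29, 70.2% to 87.0% of the 1 kb unique), and Gm4694 on chromosome 9 had 3 within 11.9 kb (4.15 to 8.07, 87.2% to 98.2%), of which 1 each held WGATAR. Each of the other 12 chains held 2 peaks, and those with the highest fold enrichment were at St6galnac1 (5.98 and 4.20) and Igf1 (5.63 and 4.53), without WGATAR. Members in chains had a median fold enrichment of 3.70, a median background of 9.52 fragments and WGATAR in 11 of 36 (30.6%).

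The number of peaks on each chromosome was compared with that of shared peaks. Of 22 chromosomes tested (2-sided Fisher's exact tests, adjusted over 22), only the mitochondrial genome passed, with 5 of 283 peaks and none of 958 (adjusted exact p = 0.0132). The largest numbers were on chromosomes 1 (32 peaks, 11.3%), 8 (28, 9.89%) and 2 (27, 9.54%). Chromosome 19 held 2 peaks (0.707%) against 3.34% of shared peaks, which did not pass after adjustment (adjusted exact p = 0.139).

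The limits of the rule left few peaks near its edges. In 256 of the 283 peaks every 24-mer of the window was unique, and 10 had from 90% to under 95%, while 18 replicate 2-only peaks had from 85% to under 90%. Just inside, at 90.9%, were peaks at Slco6d1 (fold enrichment 5.10), 9030224M15Rik (5.01) and St6galnac1 (4.20). Just outside were peaks at Muc6 (89.6%, 4.36), Zfp462 (88.3%, 6.62) and Pisd (88.3%, 6.39). Besides Fli1, 1 further peak lay within 100 bp of a replicate 1 peak. None of the 7 peaks with a replicate 1 peak within 1 kb held WGATAR, and 3 of them held CAGCTG. These 7 were singled out after their values were seen.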

How the data were processed

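ETO2 ChIP-seq libraries were analysed from peak lists deposited by the authors. Per the study's methods, read pairs were aligned to mm9 with Bowtie, keeping reads with a single alignment, duplicates were removed, and peaks were called for each replicate with MACS2 2.0.10, replicate 1 against the input and replicate 2 without one. Trim Galore, SAMtools and bedtools are also named in the submitters' processing notes. The authors' deposited score is a rescaled q-value, the deposited fold enrichment is a ratio of summit fragments to local background, and the deposited −log10 p and −log10 q are from a Poisson test. The list of the whole series gave positions only, and how it was made is not given in the sources used here. The input was not analysed here.

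Fragments and background at the summit were solved from the fold enrichment and p-value under a Poisson model for all 1873 replicate 2 peaks. Only whole numbers of fragments were searched (largest error in −log10 p 9.38e-05, genome average background 5.19). 24-mers were counted over the NCBIM37 (mm9) reference, 189 unplaced sequences included, and genes came from GENCODE annotation of that build. Chromosome names matched, and coordinates count from 1. Depth entered these values only through these fragments. The study's reporting summary lists fewer total reads for the replicate 2 ChIP than for the replicate 1 ChIP. The effect of this on comparisons between replicates was not tested. Shares were compared by exact McNemar and Fisher tests (SciPy 1.17.1, NumPy 2.4.6, pandas 2.3.3, numba 0.67.0), and word counts, recovery and tests were checked on simulated data. The threshold was 0.05.

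The members and gene lists were chosen with earlier results of these data known. Named peaks are the 10 of highest fold enrichment, those at listed genes, up to 20 within 1 kb of a start site, the 5 largest chains (ties by fold enrichment), the 5 strongest with the composite, the 5 strongest at genes with a region called in both, and 3 on each side of the 90% limit. Alternatives in q-value, fold enrichment, uniqueness, overlap, windows, flanks and distances were tried. A few peaks that this rule names are not reported here.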

Additional observations from a re-analysis of the deposited data

How the results depend on the processing

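Of 305 alternative values, 250 kept their direction and call, and 28 changed sign, of which 3, all of clustering, passed the test under the alternative. The number of peaks was 66 with a fold enrichment of at least 5 and 1241 without replicate 1, and without replicate 2 there were none. The WGATAR difference from flanks and from shared peaks kept its call under every alternative run. Limits on q-value, fold enrichment and the 1 kb were set on replicate 2 peaks alone, so the replicate 1-only peaks stayed the same 1242. The WGATAR difference from them became -7.97 points at a fold enrichment of 5 or more. Clustering against shared peaks became -12.4 points at that limit, 8.46 with at least 50% of 24-mers unique, 5.80 with 36-mers and 4.60 within 1 kb, with Fisher's exact p-values of 0.0246, 0.00142, 0.0328 and 0.0203, compared with -0.38 points and 0.938. The intergenic share against shared peaks became 6.46 points with at least 50% of 24-mers unique (Fisher's exact p = 0.0267). The other 25 sign changes passed no test on either side. Against shared peaks, RUNX became 4.63 points at a fold enrichment of 5 or more, 0.479 with all 24-mers unique, 0.146 without the mitochondrial genome, 0.516 with at least 90% of the 1 kb unique and 1.502 with lone peaks, and ETS 3.89 at a fold enrichment of 5 or more. CAGCTG became -1.37 and the E-box -0.799 with at least 50% of 24-mers unique, -0.935 and -1.25 with 36-mers, and CAGCTG -0.0118 with 200 bp windows. RATAGW became -0.111 at a q-value of at most 1e-05, -0.00853 with all 24-mers unique, -1.44 with the 1 kb limit and -0.773 with lone peaks, and against replicate 1-only peaks -0.238, -0.433 and -1.39 under the first 3 of these. ETS against replicate 1-only peaks became -4.41 with at least 50% of 24-mers unique, -2.08 with 36-mers and -0.0728 with words counted on assembled chromosomes only. The start-site share against shared peaks became -0.354 with at least 50% of 24-mers unique and -1.88 within 5 kb, and clustering 2.43 with assembled chromosomes only and 0.378 within 100 kb. Chromosomes passing the test numbered 5 with at least 50% of 24-mers unique, 3 with 36-mers, 2 with words counted on assembled chromosomes only, and 0 at a fold enrichment of 5 or more, without the mitochondrial genome, with at least 90% of the 1 kb unique, or with clusters counted once. The cause was not tested. The assembled-chromosome, mitochondrial and 1 kb alternatives were chosen after seeing the data. No paired analysis was possible because each replicate was called alone and the comparisons are between peak sets of 1 library. Repeat content was not run, as the reference is not soft-masked. The single ChIP library without input limits each fold enrichment, and 283 peaks limit shares to within about the intervals printed.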
